A study of Bos taurus with 24 samples.

Results

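Translation initiation and elongation factors are the proteins that bring the ribosome to an mRNA, find the start codon and carry the growing peptide chain forward. The members were the genes whose symbol begins with EIF or EEF and a digit, without the Y-linked EIF1AY and the eIF2 kinases, which gave 59 of the 24621 genes counted. They were measured in 24 single early bovine blastocysts: 8 derived in vivo (5 male, 3 female), 8 produced in vitro in serum-containing medium (3 male, 5 female) and 8 produced in vitro in serum-free medium (5 male, 3 female). Each embryo was 1 replicate. All embryos were Holstein, were sired by the same bull and were scored as quality 1 early blastocysts. In vivo derived embryos were flushed from a few superovulated cows, and in vitro embryos came from slaughterhouse oocytes. By the paper's methods, in vitro blastocysts were harvested either as many days after insemination as the flushed embryos or a day earlier. The age of single embryos was not used in the tests. Fetal bovine serum was present in both maturation and culture of the serum group, whereas the serum-free group had epidermal growth factor in maturation and albumin with insulin, transferrin and selenium in culture. The labels name no donor cow, in vitro run or sequencing lane for single embryos. Embryos of a group may share these, and their effects cannot be told apart from those of the group. The p-values measure the spread between embryos.

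Initiation begins when eIF2 delivers the initiator tRNA to the small ribosomal subunit, which is held open by eIF1, eIF1A and eIF3, while the cap of the mRNA is bound by eIF4E, bridged by eIF4G and unwound by the helicase eIF4A. eIF5 and eIF5B then release the factors and join the large subunit, and eEF1 and eEF2 drive elongation with the help of eIF5A. In mammals the embryo takes over its own transcription during cleavage, and at blastocyst formation protein synthesis rises as the trophectoderm, the outer layer, and the inner cell mass separate.

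By role, the members comprised 7 factors of scanning and start codon choice, 5 genes of eIF2 and initiator tRNA delivery, the 5 subunits of the eIF2B exchange factor, 13 eIF3 subunits, 4 cap binding proteins, 3 eIF4G scaffolds, 4 genes of the eIF4A helicase group, 4 inhibitors or transporters of eIF4E, eIF6, 2 eIF5A genes, 7 eEF1 genes, and eEF2 with its kinase. Symbol and function parted for EIF2C1 and EIF2C2. These are older symbols of argonautes 1 and 2, which bind small RNAs and are not initiation factors. EIF1AD, EIF4A3 and EEF1E1 are grouped here by symbol, although their functions, given below, part from the role of the group. The file also held EEF1A1 and EIF1 as a pair of rows each, marked _1 and _2. Only uniquely placed fragments were counted, so those that fit near-identical copies equally well are left out. The levels of such rows may therefore be too low. The same may hold for the X-linked EIF1AX and EIF2S3, which have Y-linked relatives in mammals.

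Counts were normalised to CPM (counts scaled to an equal effective library size) with the TMM factors of edgeR, and were tested with its quasi-likelihood test in genes reaching a limit of 15 counts in all embryos of 1 or both of the compared groups. A gene was called when its Benjamini-Hochberg adjusted p-value over all genes tested was under 0.05. Log2 fold changes are positive when the first group named is higher, and are given with their approximate standard errors (SE). In each of the 3 culture comparisons 53 of the 59 members were tested. The other 6, EEF1A2, EEF2K, EIF2C1, EIF4E1B, EIF4E3 and EIF5A2, were below the limit. The comparisons share embryos, the in vivo derived group entering 2 of them.

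The embryos had between 3253051 and 9000447 exon counts and between 11735 and 14732 genes with a count. Of the marker lists, those of trophectoderm and primitive endoderm had lower sums in serum than in vivo. The 7 trophectoderm genes summed to between 7600 and 14900 CPM in in vivo derived embryos. In serum they summed to between 333 and 5210 CPM, and in serum-free embryos to between 5050 and 28800 CPM. Most of this sum was KRT8, with medians of 8770, 749 and 6990 CPM, and KRT18, with 1830, 180 and 1030 CPM. Of the 6 tested trophectoderm genes KRT8, KRT18, GATA2 and GATA3 were called higher in vivo than in serum. The other 2, TEAD4 (log2 fold change -0.71, adjusted p = 0.105) and TFAP2C (-0.32, adjusted p = 0.292), were not called. CDX2 was not tested and had medians of 0.992, 0.333 and 1.03 CPM. The 4 primitive endoderm genes summed to between 346 and 603 CPM in vivo, between 27.9 and 233 CPM in serum and between 128 and 410 CPM in serum-free embryos, with SOX17 at 0 in every in vivo derived and serum embryo. Most of this sum was PDGFRA, with medians of 476, 80.9 and 198 CPM, which was called higher in vivo than in serum (2.04, adjusted p = 0.00101). GATA6 had medians of 17.4, 20.4 and 15.3 CPM and was not called (-0.16, adjusted p = 0.709). The 5 inner cell mass genes lay between 692 and 943, 557 and 1170, and 545 and 856 CPM in the same order, and of them SOX2 was called lower in vivo than in serum (-1.25, adjusted p = 0.0271). The others did not share a direction: KLF4 (-0.60, adjusted p = 0.0809), POU5F1 (0.55, 0.0979) and DPPA3 (0.07, 0.79) were not called, and NANOG was not tested. Markers of cumulus, blood, sperm and oocyte summed to medians of at most 19.5 CPM in any group. Single embryos were higher: the oocyte sum reached 172 CPM in serum and 104 in serum-free medium, against 15.5 in vivo. The cumulus sum reached 35.4, 51.4 and 29.7 CPM in vivo, in serum and in serum-free medium. The part of cell type makeup in the differences of the translation factors was not tested, and in whole embryos fewer cells of a type and less RNA per cell cannot be told apart.

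Most of the translation factors that differed between the in vivo and serum groups were lower in vivo. Of the 53 tested, 24 were called, 22 of them lower and 2 higher in vivo (45.3% of the members, against 28.3% of all 7339 genes tested). Among all genes 14.8% were called lower in vivo and 13.4% higher. The median log2 fold change of the members was -0.37, and that of all genes tested was -0.01. With or without a call, 43 of the 53 had a fold change on the lower side in vivo. The changes were small, since only EIF5A and EIF5B passed the threshold with a difference of at least 2-fold, a size with which 13.8% of all genes were called. EIF5B fell just under 2-fold, keeping its call, without A2, A3 or B3, which left 1 such member. Leaving out the 2 argonautes left 23 of 52 called, 21 lower and 2 higher in vivo.

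EIF5A, which binds the ribosome and relieves stalls in elongation and carries the modified amino acid hypusine, differed the most. Its level was 761 CPM in the lowest in vivo derived embryo, 913 in the median and 1012 in the highest. In serum the corresponding values were 1429, 2031 and 3121 CPM, and in serum-free medium 958, 1266 and 1618 CPM. Every serum embryo was above every in vivo derived embryo, and the serum-free embryos overlapped with both. EIF5A was 2.39-fold lower in vivo than in serum (log2 fold change -1.25, SE 0.16, adjusted p = 5.3e-05) and 1.45-fold lower than in serum-free medium (-0.54, SE 0.11, adjusted p = 0.00731).

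EIF5B, the GTPase that joins the large subunit, had 124, 178 and 225 CPM in the lowest, median and highest in vivo derived embryo, 285, 363 and 431 in serum, and 197, 246 and 314 in serum-free medium. Again the in vivo and serum embryos did not overlap. The difference was 2.05-fold (log2 fold change -1.03, SE 0.15, adjusted p = 0.000145). Its partner in the pathway, EIF5, which makes eIF2 hydrolyse GTP at the start codon, had medians of 1173, 1130 and 926 CPM in vivo, in serum and in serum-free medium, with overlapping embryos and no call in any culture comparison. The number of EIF5B counts per EIF5 count was between 0.118 and 0.180 in vivo, between 0.197 and 0.388 in serum and between 0.168 and 0.374 in serum-free embryos, so that in vivo and serum embryos were apart in this ratio too.

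**Figure D1:**
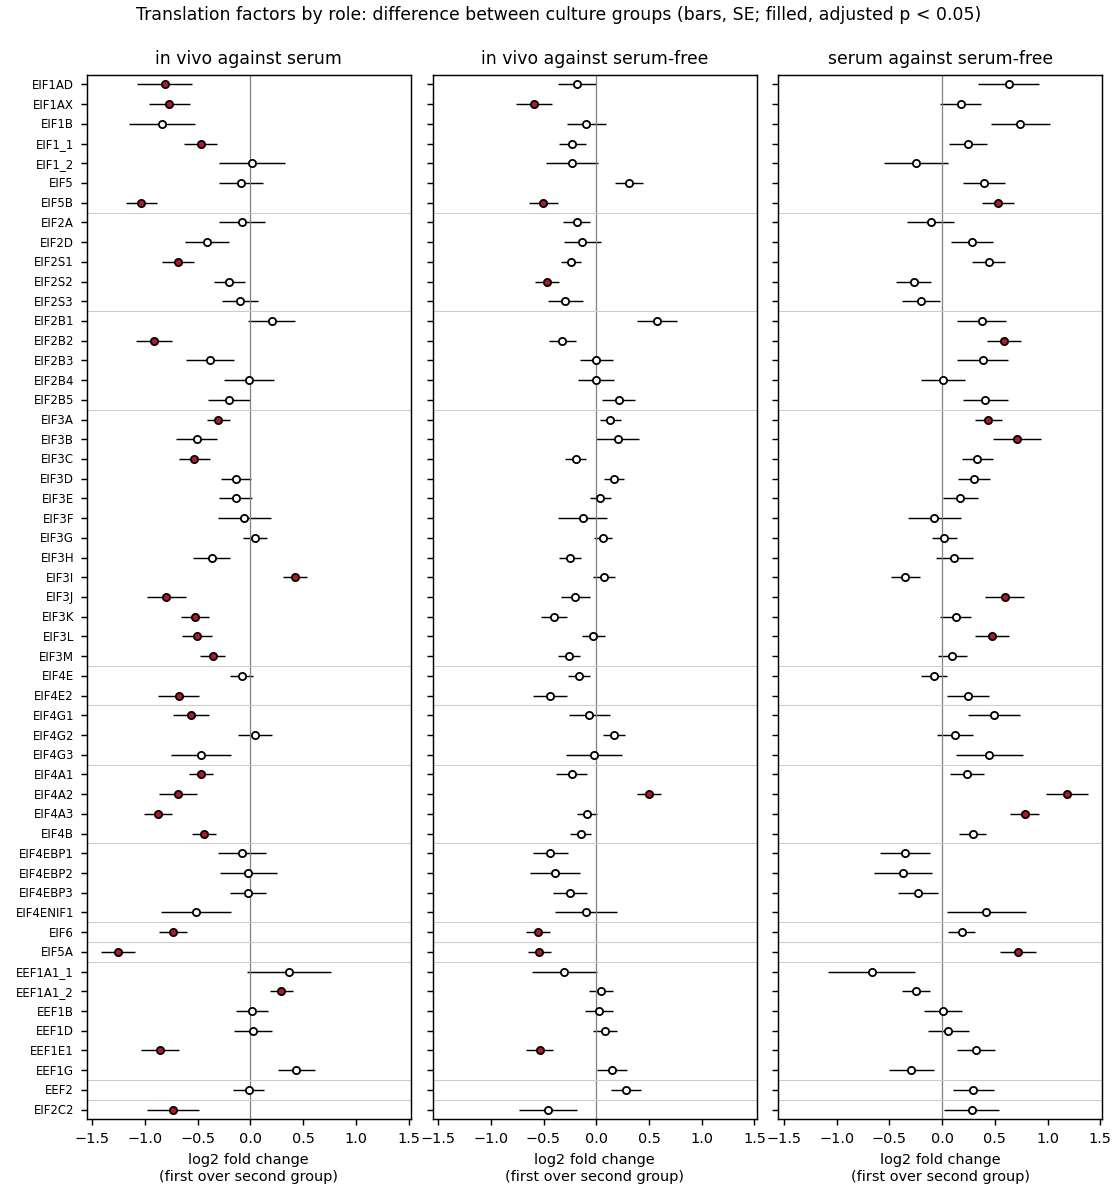
Log2 fold change (x axis, positive when the first group named is higher) of each of the 53 tested members (y axis, ordered by role and parted by grey lines from scanning factors at the top to elongation factors and the argonaute at the bottom) in the 3 culture comparisons. Points are estimates of the fit, bars their SE, and filled points passed an adjusted p of 0.05: 24 in vivo against serum, 7 in vivo against serum-free and 9 serum against serum-free.

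In all, the embryos of the in vivo and serum groups did not overlap for 8 of the 53 members, each lower in vivo: EIF2B2, EIF2S1, EIF3L, EIF4A1, EIF4A3, EIF5A, EIF5B and EIF6. Of all genes tested 7.09% did not overlap between these groups, and 2.96% did so with the lower values in vivo. EIF6 keeps the large ribosomal subunit from joining until it is released. It had 125, 165 and 195 CPM in the lowest, median and highest in vivo derived embryo, 216, 281 and 308 in serum, and 204, 232 and 281 in serum-free embryos. The in vivo derived embryos thus lay below every embryo of both cultures. Their level was 1.67-fold lower than in serum (log2 fold change -0.74, SE 0.13, adjusted p = 0.000741).

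**Figure D2:**
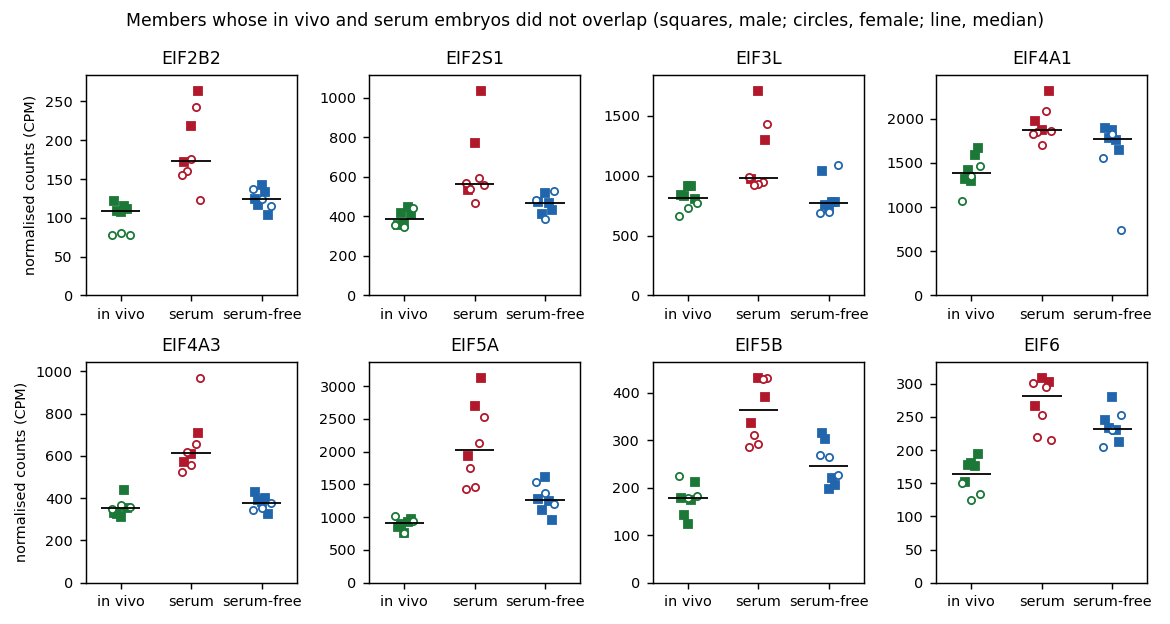
Normalised counts (y axes, CPM, each from 0) of the 8 members whose in vivo derived and serum embryos did not overlap, by culture group (x axes), with 8 embryos in each group. Squares are male and open circles female embryos, and lines are group medians. For EIF6 the serum-free embryos, at 204 CPM or more, also lie above every in vivo derived embryo.

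The genes of eIF2 and its exchange factor did not move as one. EIF2S1, the alpha subunit that the stress kinases phosphorylate, had 344, 387 and 446 CPM in vivo, 469, 563 and 1035 in serum and 386, 470 and 527 in serum-free medium. The in vivo and serum ranges were apart, and the in vivo level was 1.61-fold lower (log2 fold change -0.69, SE 0.15, adjusted p = 0.00324). EIF2S2 and EIF2S3, the beta and gamma subunits of the same complex, were not called in this comparison (-0.20 and -0.10, adjusted p = 0.330 and 0.694), nor were EIF2A and EIF2D. Of the eIF2B subunits, which reload eIF2 with GTP, EIF2B2 alone was called. It had 77.8, 108 and 121 CPM in vivo, 123, 173 and 264 in serum and 104, 124 and 142 in serum-free medium, and was 1.88-fold lower in vivo than in serum (-0.91, SE 0.17, adjusted p = 0.00101). EIF2B1, EIF2B3, EIF2B4 and EIF2B5 had log2 fold changes between -0.38 and 0.20.

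Of the 13 subunits of eIF3, the large complex that keeps the small subunit ready for initiation, 7 were called, 6 lower and 1 higher in vivo than in serum. EIF3J, a loosely bound subunit at the decoding centre, had 46.9, 54.9 and 66.9 CPM in vivo, 62.9, 106 and 134 in serum and 53.6, 64.0 and 81.8 in serum-free medium. The ranges in vivo and in serum overlapped, and the median was higher in serum. The log2 fold change was -0.80 (SE 0.18, adjusted p = 0.00412). EIF3K (-0.53, adjusted p = 0.00770), EIF3C (-0.53, 0.0113) and EIF3L (-0.51, 0.0138) were also lower in vivo, as were EIF3M (-0.36, 0.0306) and EIF3A (-0.30, 0.0480). EIF3I was the one subunit higher in vivo, with 576, 607 and 707 CPM in vivo against 360, 463 and 622 in serum (0.42, SE 0.12, adjusted p = 0.0115). EIF3B, EIF3D, EIF3E, EIF3F, EIF3G and EIF3H were not called by the quasi-likelihood test, while DESeq2 and the exact test called EIF3B too. The eIF3 genes together held between 0.468% and 0.521% of the counts of an in vivo derived embryo and between 0.538% and 0.715% in serum, without overlap, and between 0.423% and 0.544% in serum-free medium.

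All 4 genes of the helicase group were called lower in vivo than in serum. EIF4A1, the main eIF4A of dividing cells, had 1068, 1388 and 1662 CPM in vivo, 1704, 1868 and 2313 in serum and 738, 1770 and 1898 in serum-free medium. In vivo and serum embryos were apart (log2 fold change -0.47, SE 0.11, adjusted p = 0.00462). EIF4A3, the paralog in the exon junction complex that is left on spliced mRNA, had 313, 353 and 439 CPM in vivo, 525, 613 and 967 in serum and 327, 379 and 431 in serum-free medium. For this gene the serum embryos lay above all embryos of the other 2 groups, and the in vivo level was 1.83-fold lower than in serum (-0.87, SE 0.13, adjusted p = 0.000225). EIF4B, an RNA-binding cofactor of the helicase, was lower by less (-0.44, SE 0.11, adjusted p = 0.00810), with medians of 360 CPM in vivo and 474 in serum.

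EIF4A2 differed in order from its paralogs. It had 576, 645 and 773 CPM in the lowest, median and highest in vivo derived embryo, 616, 970 and 1758 in serum and 339, 492 and 561 in serum-free medium. All serum-free embryos were below all in vivo derived embryos, which in turn overlapped with the serum embryos at the lower end of the latter. EIF4A2 was lower in vivo than in serum (log2 fold change -0.68, SE 0.18, adjusted p = 0.00929) and higher in vivo than in serum-free medium (0.50, SE 0.12, adjusted p = 0.0149). There were 0.490 EIF4A2 counts for each EIF4A1 count in the median in vivo derived embryo, 0.495 in serum and 0.276 in serum-free medium. The ratio ranged from 0.347 to 0.540 in vivo, from 0.312 to 0.943 in serum and from 0.190 to 0.740 in serum-free medium, where the highest value came from embryo C3, in which EIF4A1 was at 738 CPM.

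**Figure D3:**
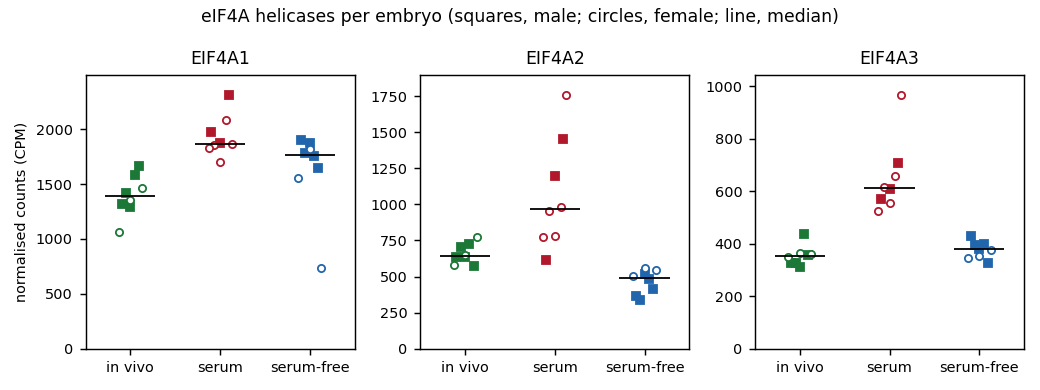
Normalised counts (y axes, CPM, each from 0) of the 3 eIF4A paralogs by culture group (x axes), 8 embryos a group. Squares are male and open circles female embryos, and lines are medians. All 3 have their highest median in serum, where EIF4A1 overlaps with the serum-free embryos. EIF4A2 is also lower in serum-free (at most 561 CPM) than in every in vivo derived embryo (at least 576 CPM).

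At the cap, the paralogs of a family parted as well. EIF4E, the cap binding protein of general initiation, had medians of 750, 785 and 817 CPM in vivo, in serum and in serum-free medium and log2 fold changes no larger than 0.16 in size, without a call. EIF4E2, a relative that represses the mRNAs it binds, had 36.8, 43.7 and 60.8 CPM in vivo and 40.8, 68.3 and 100 in serum, which overlapped, and was called lower in vivo (-0.68, SE 0.19, adjusted p = 0.0137). Of the scaffolds, EIF4G1 was lower in vivo than in serum (-0.56, SE 0.17, adjusted p = 0.0196), with medians of 259 and 348 CPM. EIF4G2, which lacks the eIF4E binding site, had the second most counts of all members and medians of 2651, 2591 and 2250 CPM, and was not called (0.04, adjusted p = 0.863 against serum), and neither was EIF4G3 (-0.47, SE 0.28). The inhibitors EIF4EBP1, EIF4EBP2 and EIF4EBP3 and the transporter EIF4ENIF1 had 0 of 4 called in any culture comparison by the quasi-likelihood test, by DESeq2 or by edgeR's exact test, with 1 unadjusted p under 0.05, that of EIF4EBP1 against serum-free medium. Against serum, the 3 inhibitors differed by between -0.08 and -0.02 on the log2 scale.

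Among the scanning factors, EIF1AX was lower in vivo (log2 fold change -0.77, SE 0.20, adjusted p = 0.00775) and is taken up again with the sexes. The main EIF1 row, EIF1_1, had 919, 1129 and 1287 CPM in vivo and 1033, 1535 and 2514 in serum, and was called lower in vivo (-0.47, SE 0.15, adjusted p = 0.0284). Its paralog EIF1B was near the threshold (-0.84, SE 0.31, adjusted p = 0.0503), and was called by DESeq2 and the exact test. The second EIF1 row was at 29.6 CPM or less in every embryo of these groups and not called. EIF1AD, an eIF1A-like protein of the nucleus that takes part in ribosome maturation, was called (-0.81, SE 0.26, adjusted p = 0.0265), its highest serum embryo, B2, having 174 CPM against a group median of 52.7.

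Of the 7 tested eEF1 and eEF2 rows 2 were called between in vivo and serum, 1 higher and 1 lower in vivo, a share near the 28.3% of all genes. EEF1A1_2, the main eEF1A row, which brings aminoacyl-tRNA to the ribosome, had the most counts of all members. It had 7708, 9927 and 11430 CPM in vivo, 7277, 8037 and 9546 in serum and 7555, 9605 and 13480 in serum-free medium, and was just called higher in vivo than in serum (log2 fold change 0.29, SE 0.11, adjusted p = 0.0483). The nucleotide exchange subunits EEF1B and EEF1D differed by 0.02 each (SE 0.15 and 0.18), and EEF1G by 0.43 (SE 0.18, adjusted p = 0.0704). EEF2, the translocase, had medians of 1916, 1754 and 1478 CPM and was not called (-0.02, SE 0.15 against serum). EEF1E1, which despite its symbol is a scaffold of the multi-tRNA synthetase complex, was the exception. It had 69.4, 82.6 and 110 CPM in vivo, 107, 133 and 255 in serum and 89.1, 130 and 141 in serum-free medium, and was 1.81-fold lower in vivo than in serum (-0.86, SE 0.18, adjusted p = 0.00205).

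Many elongation factors and some eIF3 subunits are encoded by mRNAs with a 5' terminal oligopyrimidine tract, whose translation follows mTOR. Of the 10 member rows of this kind, 2 were called between in vivo and serum, EEF1A1_2 higher and EIF4B lower in vivo, against 28.3% of all genes, with a median log2 fold change of -0.00. Against serum-free medium 0 were called by the quasi-likelihood test or DESeq2, with 1 unadjusted p under 0.05 and a median of 0.03.

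The 59 members together held between 2.87% and 3.31% of the exon counts of an in vivo derived embryo (median 3.12%), between 3.39% and 3.92% in serum (median 3.49%) and between 2.87% and 3.36% in serum-free medium (median 3.18%). All serum embryos were above all others in this share. EEF1A1_2 alone made up a large part of it, and without this row the medians were 2.13%, 2.61% and 2.25%.

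Some calls were borderline. Leaving out each of the 16 embryos in turn, 19 of the 24 called members passed the threshold every time. EEF1A1_2 lost its call without any 1 of 13 embryos (adjusted p up to 0.140), EIF3A without any 1 of 7 (up to 0.0920), EIF3M without A2 or A3 (0.0502 and 0.0523), EIF2C2 without A2 or B1 (0.0669 and 0.0520) and EIF1_1 without B3 (0.0512). The serum embryo B2, which correlated the least with the other embryos, left 24 members called when it was taken out, 1 higher and 23 lower in vivo. With sex as a covariate 22 were called, EEF1A1_2 and EIF3A falling out with adjusted p-values of 0.0845 and 0.0575.

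Between in vivo derived embryos and those produced in serum-free medium fewer members differed. Of 53 tested, 7 were called, 6 lower and 1 higher in vivo, against 5.82% of all 7314 genes, of which 3.38% were lower and 2.45% higher. At 2-fold or more 0 members were called by the quasi-likelihood test, against 2.2% of genes. Without adjustment 16 members had a p under 0.05, and DESeq2 called 9, against 9.11% of all genes. The median log2 fold change was -0.15 for the members and -0.00 for all genes. The primitive endoderm gene PDGFRA was 2.01-fold higher in vivo (adjusted p = 0.00953), while GATA6 was not called (0.21, adjusted p = 0.72). Of the trophectoderm genes 0 of 6 were called by the quasi-likelihood test or DESeq2 and 0 had an unadjusted p under 0.05. In the inner cell mass list NANOG (-1.89, adjusted p = 0.0829) and SOX2 (-0.57, 0.233) were not called, though the exact test called NANOG. KLF4 (0.52, adjusted p = 0.109), POU5F1 (0.32, 0.167) and DPPA3 (0.14, 0.539) of that list had the other sign, without a call. The part of these markers in the result was not tested. EIF6 had the smallest adjusted p-value (-0.55, SE 0.11, adjusted p = 0.00563) and, with EIF4A2, was 1 of the 2 members whose groups did not overlap, as was the case for 0.93% of all genes. EIF5A was named above. EEF1E1 was 1.45-fold lower in vivo (-0.54, SE 0.13, adjusted p = 0.0192) and EIF5B 1.42-fold lower (-0.50, SE 0.14, adjusted p = 0.0356). EIF2S2 was called here, with 349, 394 and 512 CPM in vivo and 442, 536 and 751 in serum-free medium (-0.47, SE 0.11, adjusted p = 0.0218), and the embryos overlapped. EIF1AX followed with -0.59 (SE 0.17, adjusted p = 0.0455). Of the eIF3 subunits 0 of 13 were called by the quasi-likelihood test, 3 had an unadjusted p under 0.05, and DESeq2 and the exact test called EIF3K. They had log2 fold changes between -0.40 for EIF3K and 0.20 for EIF3B. EIF2B1 was not called (0.58, SE 0.19, adjusted p = 0.0765), though it was by DESeq2. EIF5B lost its call when any 1 of 9 embryos was left out (adjusted p up to 0.0698), and EIF1AX when any 1 of 11 was (up to 0.0844). Without embryo C3, 8 members were called. In 1 fit of all 24 embryos, which share an estimate of the spread, EIF6 alone remained called, 1.89% of the members against 1.53% of all genes.

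Set directly against each other, the cultures differed in 9 of 53 members (17%), a share near the 16.3% called among all 7181 genes tested. All 9 were higher in serum, and of all genes 8.29% were called higher in serum. The members' median was 0.24, against 0.02 for all genes. Of the marker genes, KRT8, KRT18, GATA2 and GATA3 were called lower in serum here too, TEAD4 (0.30) and TFAP2C (0.24) were not called, and KLF4 of the inner cell mass list was called higher in serum (1.12, adjusted p = 0.0170). The rest of that list, SOX2 (0.68, adjusted p = 0.255), NANOG (0.46, 0.716), DPPA3 (0.07, 0.81) and POU5F1 (-0.23, 0.57), was not called. PDGFRA (-1.04, adjusted p = 0.087) and GATA6 (0.37, 0.481) were not called either, though DESeq2 called PDGFRA. The part of the marker genes in the result was not tested. EIF4A2 led with a 2.27-fold difference (log2 fold change 1.18, SE 0.20, adjusted p = 0.00256), the 1 member called at 2-fold or more (8.91% of genes), followed by EIF4A3 (0.78, SE 0.14, adjusted p = 0.00282). Only for these 2 members did the groups not overlap, which held for 2.37% of all genes. EIF5A (0.72, SE 0.17, adjusted p = 0.0121), EIF2B2 (0.59, SE 0.16, adjusted p = 0.0208) and EIF5B (0.53, SE 0.15, adjusted p = 0.0231) were higher in serum as well. The other calls were eIF3 subunits, EIF3A (0.44, adjusted p = 0.0264), EIF3B (0.71, 0.0382), EIF3J (0.59, 0.0367) and EIF3L (0.47, 0.0491), so that 4 of the 13 were higher in serum. EIF1B had a large but variable difference (0.74, SE 0.28, adjusted p = 0.0751). EIF3B and EIF3J each lost the call without any 1 of 6 embryos (adjusted p up to 0.0678 and 0.0645) and EIF3L without any 1 of 9 (up to 0.0856), and 6 members were called without serum embryo B7 or serum-free embryos C7 or C10. In the fit of all 24 embryos 14 members were called, 13 higher and 1 lower in serum, with the 9 among them. This was 26.4% of the members against 25% of all genes.

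Within the sexes, members were called between in vivo and serum in males. Between 5 male in vivo derived and 3 male serum embryos 16 of 53 members were called, all lower in vivo, against 19% of all 7762 genes and 9.19% lower in vivo. In male in vivo derived embryos EIF5A had 761, 856, 893, 933 and 966 CPM, and in the male serum embryos it had 1934, 2694 and 3121 CPM. This 2.92-fold difference (log2 fold change -1.54, SE 0.17, adjusted p = 0.000451) stood with those of EIF5B (-1.21, SE 0.20, adjusted p = 0.00260) and EIF4E2 (-1.08, SE 0.22, adjusted p = 0.00695), the 3 members called at 2-fold or more, against 13.3% of genes. Taking out male serum embryo B7 left 9 calls, and taking out A1, A2 or A3 left 10 each. Against male serum-free embryos 3 members were called, against 1.76% of genes: EIF2B1 (0.88, SE 0.19, adjusted p = 0.0355) and EIF4A2 (0.61, SE 0.14, adjusted p = 0.0414) were higher and EIF1AX (-0.70, SE 0.16, adjusted p = 0.0457) was lower in vivo. Each of these 3 calls was lost without any 1 of 8 of the 10 embryos. Leaving out A1, A2, A3, A4, A8, C2 or C6 left 0 called, and leaving out C7 left 5.

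Between 3 female in vivo derived and 5 female serum embryos 0 of 54 members were called by the quasi-likelihood test, against 0.418% of 8138 genes. Without adjustment 17 had a p under 0.05, DESeq2 called 7 (8.8% of all genes) and edgeR's exact test 3 (6.03%). The smallest adjusted p among the members, 0.0790, was that of EIF2B2 (-1.14, SE 0.26), EIF5A and EIF6 (-0.93, SE 0.21). EIF5A had 765, 943 and 1012 CPM in vivo against 1429, 1461, 1755, 2127 and 2536 in serum (-1.06, SE 0.24). The groups were thus apart for EIF5A without a call. The median of the members was -0.36, as in males. Without serum embryo B2 the median in females was -0.22, and 7 members were called, against 7.13% of all genes. In female in vivo derived against female serum-free embryos 0 of 53 were called by the quasi-likelihood test, against 0.304% of genes, 10 had an unadjusted p under 0.05, and DESeq2 and the exact test called 1 each. The interaction of sex and culture, which tests the difference between the sexes itself, called 0 members against serum and 0 against serum-free medium with edgeR and with DESeq2 (0% of all genes with edgeR). Its smallest adjusted p among the members was 0.953 for serum, with 2 members under 0.05 before adjustment, and 0.542 for serum-free medium, with 7. The presence of calls in males and not in females was therefore not shown to be a difference between the sexes.

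The sexes themselves differed in 3 members in vivo, against 1.26% of the 7963 genes tested. EIF1AX and EIF2S3 are X-linked, and in other mammals they are known to be transcribed also from the inactive X chromosome. EIF2S3 had 341, 366, 370, 388 and 401 CPM in the 5 male and 477, 573 and 671 CPM in the 3 female in vivo derived embryos, without overlap, and was 1.54-fold lower in males (log2 fold change -0.62, SE 0.13, adjusted p = 0.0292). EIF1AX had 228, 228, 262, 283 and 303 CPM in males and 372, 380 and 479 CPM in females, again without overlap (-0.66, SE 0.14, adjusted p = 0.0376).

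EIF2S3 and EIF1AX had a lower median in males in both cultures as well. In serum EIF2S3 had 336, 353 and 373 CPM in males and 488, 530, 555, 607 and 607 in females, with no overlap, and EIF1AX had 271, 407 and 501 CPM against 566, 589, 620, 620 and 754. These groups of 3 and 5 gave log2 fold changes of -0.66 and -0.68 but adjusted p-values of 0.533 and 0.653 over all genes. In serum-free medium the difference was -0.52 for EIF2S3 and -0.46 for EIF1AX (adjusted p = 0.519 and 0.611), and the sexes overlapped through male embryo C7 for EIF2S3, at 639 CPM, and C4 for EIF1AX, at 532 CPM. The sexes thus differed in 0 of 53 members in serum by the quasi-likelihood test (3 with an unadjusted p under 0.05, and 0 by DESeq2, against 0.173% of genes) and in 0 of 53 in serum-free medium (2 and 0, against 0.152%). In a fit of all 13 male and 11 female embryos with culture as a covariate, added after the data were seen, both were called (EIF2S3 -0.61, adjusted p = 0.000109; EIF1AX -0.61, adjusted p = 0.00136).

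EIF2B1, the alpha subunit of the exchange factor, was higher in males than in females in vivo. It had 112, 113, 128, 133 and 150 CPM in the males and 68.7, 78.6 and 81.8 in the females (log2 fold change 0.74, SE 0.16, adjusted p = 0.0409). In serum the males had 70.2, 91.7 and 138 CPM and the females 39.6, 90.1, 102, 110 and 114, and in serum-free medium the sexes overlapped as well. Over all 24 embryos the difference was 0.20 with an adjusted p of 0.732. The 3 sex calls in vivo were not stable to single embryos: leaving out A1, A2, A6, A7 or A8 left 0 called, and leaving out A9 left 1, with adjusted p-values up to 0.191.

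**Figure D4:**
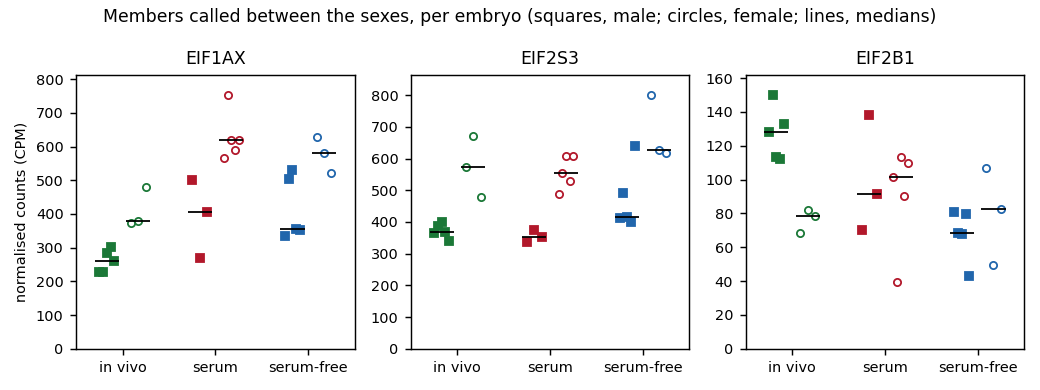
Normalised counts (y axes, CPM, each from 0) of the 3 members called between male and female in vivo derived embryos, by culture group (x axes). Squares are male (5, 3 and 5 embryos) and open circles female embryos (3, 5 and 3), and lines are medians: EIF1AX and EIF2S3 have lower medians in males in each group, and EIF2B1 is apart between the sexes only in vivo.

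The in vivo derived and serum-free groups each had 5 males, and the serum group had 3. With sex as a covariate EIF1AX was lower in vivo than in serum by 0.60 on the log2 scale, in place of 0.77, and still called (adjusted p = 0.00419). For serum-free medium the value with the covariate was -0.61 (adjusted p = 0.00491). EIF2S3 was not called between in vivo and serum in either fit, its value changing from -0.10 to 0.06.

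The 6 members below the limit were read from few counts. EEF1A2, the eEF1A of muscle and nerve, had 66 counts in serum male B1, 21 in serum male B7 and between 0 and 3 in each of the other 22 embryos. These 2 embryos alone made up its level in serum, and all 8 serum-free embryos were at 0. EIF4E1B, the cap binding protein of the oocyte, had 0 counts in 6 of 8 in vivo derived embryos, 4 of 8 serum embryos and 1 of 8 serum-free embryos, and its highest levels were 5.09, 9.05 and 21.7 CPM. EIF5A2, the second eIF5A gene, had medians of 0.632, 4.85 and 2.85 CPM in vivo, in serum and in serum-free medium. With the limit lowered to 1 count in any embryo EEF1A2 and EIF5A2 were called lower in vivo than in serum (adjusted p = 0.00988 and 0.0284). EEF1A2 was called also in males against serum (0.00134) and between the cultures (0.0340), higher in serum each time, and EIF4E1B was called lower in vivo in males against serum-free medium (0.00903). EEF2K, EIF2C1 and EIF4E3 were at 8.11 CPM or less in every embryo. Of the argonautes, EIF2C2 was lower in vivo than in serum (log2 fold change -0.73, SE 0.25, adjusted p = 0.0342).

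Genes around the factors were followed in 6 lists of the same pathway. Their counts stand beside 28.3% of all genes called in vivo against serum, 5.82% in vivo against serum-free and 16.3% between the cultures, and with 7 to 9 genes a list they are given as a description only. Of the 7 tested termination and recycling genes 3 were lower in vivo than in serum, namely GSPT1, the release factor eRF3, DENR and MCTS1. MCTS1, which with DENR recycles the small subunit, had 7.26, 11.7 and 26.8 CPM in the lowest, median and highest in vivo derived embryo, 12.6, 32.4 and 79.2 in serum and 8.82, 15.7 and 26.1 in serum-free medium. Its embryos overlapped in vivo and in serum (log2 fold change -1.30, SE 0.34, adjusted p = 0.00929), and it was higher in serum than in serum-free medium (1.12, SE 0.34, adjusted p = 0.0338), as were GSPT1 and DENR. Against serum-free medium 0 of the 7 were called by the quasi-likelihood test or DESeq2, and 0 had an unadjusted p under 0.05.

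Of the mTOR complex 1 list, in which 9 genes were tested, 3 were lower in vivo than in serum: RHEB, its activating GTPase, the S6 kinase RPS6KB2, and DDIT4, a stress-induced inhibitor of the complex. DDIT4 had 34.9, 47.5 and 61.0 CPM in vivo, 78.5, 123 and 282 in serum and 35.8, 113 and 203 in serum-free medium. Its in vivo and serum embryos were apart, and it was lower in vivo than in serum (-1.63, SE 0.26, adjusted p = 0.000326) and in serum-free medium (-1.39, SE 0.27, adjusted p = 0.00400). RHEB is known to switch on the complex that DDIT4 restrains. RHEB and RPS6KB2 were also higher in serum than in serum-free medium, 2 of 8 tested.

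Of the eIF2 kinases, phosphatase subunits and targets, IMPACT, an inhibitor of the kinase GCN2, was higher in vivo than in serum (1 of 8 tested). Against serum-free medium 2 of 9 were called, the phosphatase subunit PPP1R15A higher (0.88, SE 0.24, adjusted p = 0.0322) and the transcription factor ATF4 lower in vivo (-0.62, SE 0.18, adjusted p = 0.0479), and between the cultures 0 of 9 were called by either tool (1 unadjusted p under 0.05). In the list of poly(A) binding and cap regulators CYFIP1 was higher and PABPC4 lower in vivo than in serum (2 of 9), 0 of 9 were called against serum-free medium by the quasi-likelihood test or DESeq2 (1 unadjusted p under 0.05), and PABPC1 and PAIP2 were higher in serum than in serum-free medium. Of the 9 genes that modify the factors, DOHH and DPH3 were lower in vivo than in serum. DOHH completes hypusine on eIF5A, and DPH3 is needed for the diphthamide of eEF2. DPH7 was not tested in serum against serum-free medium. In the culture comparisons other than in vivo against serum, 0 were called by the quasi-likelihood test. There 2 and 3 had an unadjusted p under 0.05, and DESeq2 called DNAJC24 against serum-free medium and DPH3 between the cultures. The 8 mitochondrial translation factors tested had 0 calls in any culture comparison by the quasi-likelihood test or DESeq2 (1, 1 and 0 with an unadjusted p under 0.05), with medians of -0.17, -0.11 and 0.07.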

How the data were processed

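The deposited file holds raw counts. Per the labels and methods, the authors used CLC Genomics Workbench to trim and align the reads to UMD 3.1, and kept for each gene the number of uniquely placed exon fragments, regardless of strand and unnormalized. All 24 value columns were matched to an embryo by name. Groups and sexes are those of the labels. From the counts, edgeR 4.0.16 in R 4.3.3 was used with TMM normalization and the quasi-likelihood test, in fits of the groups compared, on genes with at least 15 counts in every embryo of at least 1 group. Adjustment was made by Benjamini-Hochberg over all genes tested. Standard errors are approximate, the estimate divided by the square root of F. CPM were computed with TMM factors over all 24 embryos, and groups were said not to overlap on these values. Embryos that share a label number did not deviate together (0 of 7 pairs over 0.1 in each pair of groups), so numbers were not used as pairs.

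The members and all lists were chosen with earlier results of these data known, and no score over members was tested. Named were members called in a comparison, those with the largest changes or most counts, X-linked members and paralog families, and pathway genes called at 2-fold, with the other called list genes named so that counts can be followed. Alternatives were DESeq2 1.42.0, its size factors, edgeR's exact test, other count limits, library sizes without TMM factors, sex as a covariate, 1 fit of all embryos, number blocks and leaving out each embryo. Totals of 3253051 to 9000447 counts per embryo limit precision for low genes, and without molecular identifiers counts are not independent molecules. Sequences of the members are not shown here.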

Additional observations from a re-analysis of the deposited data

Results flagged for a closer look

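In 90 groups of 8 embryos, for the 29 members in the test and the summed share of counts, 1 embryo stood apart from the others in 12 by Dixon's criterion, where chance gives about 1 in 20. In in vivo derived embryos these were A6 with the lowest EIF2B3 (39.52 CPM, the nearest other 54.08) and the highest EIF3M (220.9, 193.3), A8 with the highest EIF2S2 (512.1, 420.5), A4 with the highest EIF4A3 (438.8, 366.2) and A7 with the highest EIF4E2 (60.81, 47.55). In serum, B2 was apart in EIF1AD (174.4 CPM, 105.1) and EIF4A3 (967.0, 707.9), B1 in EIF3I (622.2, 477.6) and B7 in the summed share of all members (3.923%, 3.607%). In serum-free medium C4 was apart in EIF1AD (83.54 CPM, 54.16), and C3 was lowest in EIF4A1 (738.4, 1552) and in EIF4G1 (83.43, 231.9). EIF4A3 stayed called between in vivo and serum, and between the cultures, without any 1 embryo.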

How the results depend on the processing

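No member named reversed its direction in a call. Of 822 values of single members with 1 embryo left out 675 kept their side of the threshold and 147 lost the call, and of 454 under other settings 383 kept it and 71 lost it. In vivo against serum, 24 members were called, and 20 to 26 under every setting but the block, while 2-fold calls went from 2 to 4 with a limit of 1 count in any embryo and to 1 with 15 counts in every embryo of both groups. With the limit of 1 count and more genes tested, 3 members were called in vivo against serum-free, all of them among the 7, and 4 between the cultures, 3 of them among the 9 and the other EEF1A2 (2 in place of 1 at 2-fold). Of all genes 1.36% and 4.03% were called there. A fit of all 24 embryos gave 1 and 14 for these comparisons, beside 1.53% and 25% of all genes. DESeq2 called 7 members between males in vivo and in serum-free medium (6.04% of all genes), 7 in females against serum (8.8%), 1 in females against serum-free medium (2.78%) and 5 between the sexes in vivo (3.74%). The exact test called 3 and 1 in females (6.03% and 2.74% of all genes). Without EEF1A1_2 the median summed shares were 2.134%, 2.612% and 2.25%. Where the cause of a change is not given, the cause was not tested. Leaving out 1 embryo gave 1 to 3 members at 2-fold in vivo against serum, 9 to 20 in males against serum, 0 to 5 in males against serum-free medium, 0 to 7 in females against serum, 0 to 2 between the sexes in vivo and 0 to 1 in serum. Low counts limit the 6 members below the limit.

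With a replicate block over the label numbers that groups share, 8 members (all lower in vivo) were called against serum. This was 14.8% of the members, near the 14.4% of all genes called in that fit. Against serum-free medium 3 members were called (5.66%, against 2.14% of genes). Between the cultures 0 were called, also at 2-fold (0.411% of genes called), and 0 in males against serum-free medium (0.0989% of genes). Same-numbered embryos did not deviate together (correlations from -0.1266 to 0.0881), so that the numbers do not pair the embryos. This fit holds fewer embryos, and it was not run for the other comparisons within or between the sexes.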
